A study of Mus musculus with 20 samples.

Results

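The promoters described here are the 196 of 22480 (0.872%) that held 63 to 100 CG sites and averaged at least 20 normalized reads over both groups of control sperm. They lie on chromosomes 1 to 19 and belong to genes that the deposited table does not mark as imprinted. Symbols beginning with Mir, Zfp, Pcdh or Hox, as well as Prr22 and Gm5105, were left out. Another 4958 promoters met the same conditions on CG sites, names and chromosomes but stayed under 20 in control sperm, and they are used for comparison. The control values chose the members, so that their control levels, and every comparison of DEHP with control, are descriptions without a test.

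Promoters rich in CpG sites are mostly free of DNA methylation in germ cells and in most other tissues, and methylation of a CpG island at a transcription start is associated with a silent gene. In the male germ line methylation is newly written in fetal prospermatogonia. Exons inside active genes are usually methylated, and a promoter that lies beside the end of another gene can therefore have both kinds of sequence within a short distance.

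Sperm DNA of 20 male offspring, 5 in each of 4 groups, was analyzed by MBD-sequencing at 8 weeks of age. Each of the strains, C57BL/6J and FVB/N, had a control and a DEHP group. The mothers of the DEHP groups were given di(2-ethylhexyl) phthalate orally, 300 mg/kg/day in corn oil, from gestation day 9 to 19, and those of the control groups corn oil alone. In MBD-sequencing a protein domain that binds methylated CpG pulls down DNA fragments before sequencing. The reads over a region thus follow both how many CpG it holds and how many of these are methylated. Every value is the authors' mean of normalized reads over 5 libraries in a probe of 2200 bases, reaching from 2000 bases before to 200 bases after the transcription start, with the authors' SD. Sperm was collected by diffusion from epididymis and vas deferens, and the labels do not say how many litters the males came from.

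Treatment cannot be told apart from the sequencing set, since the DEHP samples and the control samples were sent for preparation and sequencing separately, with different read lengths. Each set held both strains. The sums of the means over all promoters were 226268 in the control and 153283 in the DEHP group of C57BL/6J, and 141091.6 in the control and 150346 in the DEHP group of FVB/N. The control group of C57BL/6J held the most signal. Ratios of the members as a whole are also given after scaling to equal sums or equal medians. Those of smaller sets and single promoters are as deposited unless stated. As a check of the sperm, 16 genes that are methylated in somatic cells and free of methylation in sperm, among them Dazl, Ddx4 and Sycp3, were at a summed level of 115.2, 90.6, 118.6 and 83.9 in the same order. Their single levels ranged from 1.1 to 16.9, and 0 of 16 were listed at 0 in any group. As deposited, the sum was higher in control than in DEHP sperm in both strains. With equal sums it was 85.4 in control and 99.2 in DEHP sperm of C57BL/6J, the reverse order, and 141 and 93.6 in FVB/N. Its part in the results was not tested. The promoters of 8 genes methylated on the maternal allele had medians of 3.55, 4.05, 3.2 and 3.65 normalized reads, with Nnat highest at up to 26.5. Of the paternally methylated genes, H19 was at 25.3, 18, 18.8 and 17.5. Rasgrf1 was at 2.4, 3, 3.7 and 2.6, as low as the maternal list. Whether these probes cover the methylated regions of the imprinted genes was not examined.

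These values do not show that the CpG island at the start is methylated, since the reads were summed over the whole probe and their position inside it was not resolved. A CpG island, here a window of 200 bases with a GC content over 50% and a ratio of observed to expected CpG over 0.6, covered the transcription start in 182 of 196 members (92.9%), as in 97.4% of the promoters under 20. A CpG island more than 1000 bases upstream was present in 103 members (52.6%) and in 17.5% of the promoters under 20. The members held a median of 20 CG sites in that upstream part, against 11, and a median of 44 CG sites from 400 bases before to 200 bases after the start, against 50. With nearly the same total, at a median of 77 and 76 CG sites, the members thus carried more of them far upstream and fewer at the start. For this reason they are called CG-rich promoters with high signal below, and no statement is made on their start site alone.

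**Figure D1:**
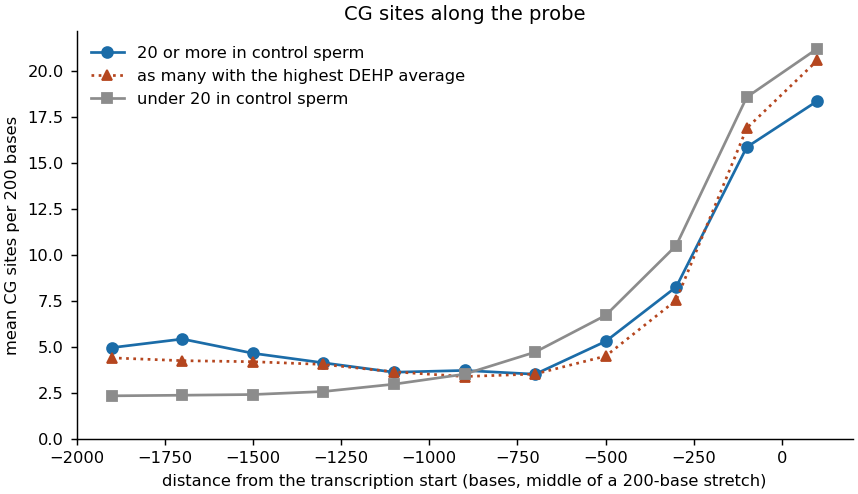
Mean number of CG sites per 200 bases (y axis) against the distance from the transcription start (x axis, bases) for the 196 members, for as many promoters of the same CG range with the highest DEHP average, and for the 4958 promoters under 20 in control sperm. In the first 200 bases of the probe members held a mean of 4.95 CG sites against 2.33, and in the last 200 bases 18.4 against 21.2.

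The probes often reached into another gene. Of the 196 probes, 139 (70.9%) overlapped an exon of another protein-coding gene in the GENCODE annotation, 128 (65.3%) overlapped another gene's coding sequence and 93 (47.4%) held the end of another coding gene's transcript. The corresponding shares in the promoters under 20 were 28.2%, 19.2% and 8.98%. The transcription start of a coding gene on the opposite strand lay in 64 probes (32.7%), against 22.4%. Exons of other coding genes filled a median of 29.6% of the bases of a member and 0% of the bases of the other promoters. Members also had less repeat-masked sequence, with a median of 10.3% against 17.5%, and a higher GC content, 54.4% against 50.7%. At least 90% of the sampled sequences of 51 bases occurred once in the genome in 192 members and in 95% of the promoters under 20.

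These features did not enter the rule, although CG sites anywhere in a probe can add reads to it. Among the 196 promoters of the CG range with the highest DEHP average, 52.6% overlapped an exon of another coding gene and 35.2% had an upstream CpG island. Both shares lay between those of the members and of the promoters under 20. Of these promoters, 108 (55.1%) were also members.

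Across all 5154 promoters of the CG range the share of members was higher with more CG sites beyond 1000 bases upstream, up to 30 sites. It was 0 of 497 promoters with at most 5 such sites, 1 of 1826 with 6 to 10, 99 of 2269 with 11 to 20 (4.36%), 74 of 336 with 21 to 30 (22%) and 22 of 226 with over 30 (9.73%). By contrast, the share was 10.3% of the 203 promoters with at most 25 CG sites near the start and 1.86% of the 1669 promoters with at least 56. Spearman's rho of the control average with the upstream CG sites was 0.40 and with the CG sites near the start -0.10 over these 5154 promoters, which share libraries and base composition.

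Sequences far upstream and at the start are shown for 3 members, each with the stretch of 200 bases richest in CG sites more than 1000 bases upstream, outside annotated untranslated regions, and the 200 bases just before the start. They are printed 5′ to 3′ in the direction of the gene from GRCm38.p6, which shares its coordinates with mm10, and CG sites are in capitals. Frs3os and Gm3336 are among the 10 members with the highest control average and have another gene's coding sequence upstream. They are not typical, with 47 and 45 CG sites more than 1000 bases upstream, against a median of 20 in the members. Vwa7 and Scx, read in the same way, are not printed. They held 10 and 8 CG sites upstream and 7 and 8 before the start. The upstream stretch was picked as the richest and the other was fixed, which favors the upstream counts. Frs3os is an antisense RNA, and its upstream stretch (chr17:47703427-47703626, minus strand) lies wholly in coding sequence of Frs3, an adaptor of fibroblast growth factor receptors. It holds 16 CG sites, against 5 just before the start (chr17:47701997-47702196, minus strand).
Frs3os upstream: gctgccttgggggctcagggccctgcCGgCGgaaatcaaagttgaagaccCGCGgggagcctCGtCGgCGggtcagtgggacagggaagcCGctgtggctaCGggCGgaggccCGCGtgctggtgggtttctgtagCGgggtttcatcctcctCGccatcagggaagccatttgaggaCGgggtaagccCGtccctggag
Frs3os before the start: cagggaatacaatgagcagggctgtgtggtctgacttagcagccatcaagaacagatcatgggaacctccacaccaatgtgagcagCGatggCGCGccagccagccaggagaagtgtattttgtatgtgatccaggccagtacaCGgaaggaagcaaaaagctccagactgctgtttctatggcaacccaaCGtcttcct

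Gm3336 is a gene model without a known function, whose upstream stretch (chr8:70716823-70717022, plus strand) lies wholly in coding sequence of Iqcn. It holds 17 CG sites, against 12 before the start (chr8:70718343-70718542, plus strand).
Gm3336 upstream: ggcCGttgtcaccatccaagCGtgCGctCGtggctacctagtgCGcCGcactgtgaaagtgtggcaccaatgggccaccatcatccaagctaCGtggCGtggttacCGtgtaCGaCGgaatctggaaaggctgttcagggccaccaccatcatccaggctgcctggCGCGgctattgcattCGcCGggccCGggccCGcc
Gm3336 before the start: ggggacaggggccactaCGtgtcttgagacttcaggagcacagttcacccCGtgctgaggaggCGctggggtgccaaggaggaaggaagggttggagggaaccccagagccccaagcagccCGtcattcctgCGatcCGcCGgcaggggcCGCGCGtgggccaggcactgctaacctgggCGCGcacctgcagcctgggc

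Senp6, a protease that removes SUMO chains from proteins, is shown as a member without another coding gene in its probe. It is not typical either, with 58.8% repeat-masked sequence in its probe, against a median of 10.3% in the members. Here the order is the reverse, with 9 CG sites upstream (chr9:80065103-80065302, plus strand) and 21 before the start (chr9:80066703-80066902, plus strand).
Senp6 upstream: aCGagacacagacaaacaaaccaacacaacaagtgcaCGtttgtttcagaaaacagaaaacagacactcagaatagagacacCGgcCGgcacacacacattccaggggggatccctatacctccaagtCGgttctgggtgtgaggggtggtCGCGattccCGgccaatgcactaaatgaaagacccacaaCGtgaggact
Senp6 before the start: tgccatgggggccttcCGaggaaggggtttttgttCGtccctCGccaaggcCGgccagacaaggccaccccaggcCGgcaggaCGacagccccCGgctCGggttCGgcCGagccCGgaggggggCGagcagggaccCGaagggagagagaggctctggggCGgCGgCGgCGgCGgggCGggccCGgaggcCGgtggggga

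The control average of the members ranged from 20 to 120.3 normalized reads with a median of 25.6. It was under 30 in 132 members and at least 50 in 24. In C57BL/6J control the members had a median of 30.8 (lowest 19.6, highest 133) and in FVB/N control of 21.2 (lowest 11.1, highest 108). The promoters under 20 had medians of 4.0 and 2.5. Just inside the threshold were Jup at 20, Lmtk2 at 20.05 and Herpud1, Alkbh4 and Fam132b at 20.1, and just outside were Gpn2 and Plcd1 at 19.95 and Prdm9, Csnk1d and Engase at 19.9. Jup encodes plakoglobin of cell junctions, and Prdm9 the methyltransferase that places meiotic recombination. In FVB/N control 84 members stayed under 20 as deposited, and in C57BL/6J control 2 did, so that FVB/N contributed less to the average. After scaling, C57BL/6J control was below FVB/N control in 134 members with equal sums and in 146 with equal medians.

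The members with the highest control average were Snord37, Misp, Vwa7, Frs3os, Cort, Rccd1, Pold1, Gm3336, Usp19 and Cyba. All 10 probes held exons of another coding gene. Snord37 is a small nucleolar RNA within an intron of Eef2, the elongation factor of translation, and exons of Eef2 filled 31.3% of its probe. Its mean was 133 ± 55 (SD, n = 5) in C57BL/6J control, 25.1 ± 12.2 in C57BL/6J DEHP, 108 ± 24 in FVB/N control and 30.2 ± 5.2 in FVB/N DEHP. Both control groups were thus above both DEHP groups, and in FVB/N all control libraries were above all DEHP libraries.

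Misp, an actin-binding protein of the mitotic spindle, lies behind Palm, whose exons filled 84.4% of the probe. It was at 130 ± 57.8 (SD, n = 5) in C57BL/6J control, 23.6 ± 12.7 in C57BL/6J DEHP, 101.3 ± 16.2 in FVB/N control and 30 ± 9.1 in FVB/N DEHP. No CpG island covered its start, which also held for Vwa7 and Frs3os. The exons of Vars, a valine tRNA ligase, filled 57.6% of the probe of Vwa7, and those of Frs3 62.05% of the probe of Frs3os. Vwa7 was at 118 ± 43.6, 24.2 ± 13.1, 74.4 ± 22.5 and 23.7 ± 4.2 in the same order of groups, and Frs3os at 111 ± 47.9, 23.7 ± 9.8, 73.3 ± 24.8 and 26.2 ± 5.8. In these 4 promoters the mean as deposited was highest in C57BL/6J control, followed by FVB/N control. Equal sums multiply the means by 0.741 in C57BL/6J control and by 1.19 in FVB/N control. Equal medians multiply them by 0.91 and 1.52. Either scaling puts FVB/N control above C57BL/6J control in all 4.

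Cort encodes the neuropeptide cortistatin, and the neighbour ending in its probe was Cenps, a centromere protein. It was at 89 ± 43.8 in C57BL/6J control and 89.6 ± 7 in FVB/N control. The means were nearly equal as deposited but not after scaling, and the spread was wider in C57BL/6J. Rccd1 (beside Unc45a) was at 94.1 ± 34.6 and 61.3 ± 5 in the control groups, Pold1 (beside Nr1h2) at 83.7 ± 36.4 and 57.1 ± 17.3, and Usp19 (beside Lamb2) at 67.2 ± 26.9 and 69 ± 15.1. Pold1 is the catalytic subunit of DNA polymerase delta and Usp19 a deubiquitinase. Cyba, a subunit of the NADPH oxidase, is beside Mvd of the mevalonate pathway and was at 71.8 ± 27.2 and 59 ± 13.3.

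Zdhhc22, Kif7, Asic4, Senp6, Ctdsp2, Mei1 and Ptprs are named below for other values and had no exon of another coding gene in their probe. Among the 57 members of this kind, the median was 27.9 in C57BL/6J control and 19.2 in FVB/N control, against 32.8 and 23.0 in the 139 members with such an exon. The 16 members with more than 50% of their CG sites in the upstream 1100 bases of the probe had the higher medians of 59.0 and 48.6. Zdhhc22, a palmitoyltransferase, was the most extreme, with 79.6% of its 98 CG sites in the upstream 1100 bases.

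In DEHP sperm the members were lower, but they stayed above the rest of the CG range. Their median was 12.3 in C57BL/6J DEHP (lowest 4.9, highest 47.5) and 13.3 in FVB/N DEHP (lowest 4.6, highest 51.4), against 4.1 and 3.8 in the promoters under 20. The DEHP average was at least 20 in 14 members and in 0 of the 4958 other promoters. The order of the members was partly kept, with a Spearman's rho of 0.60 between control and DEHP averages over the 196 members and of 0.75 between both strains in DEHP.

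**Figure D2:**
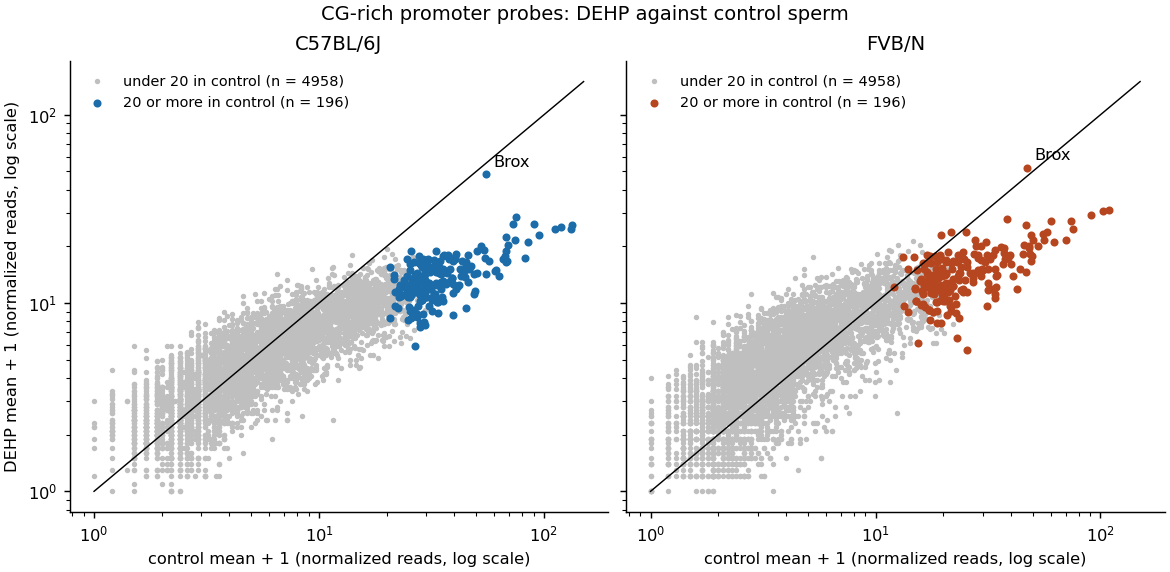
DEHP mean against control mean in normalized reads plus 1, on log axes, for the 196 members (colored) and the 4958 promoters under 20 in control sperm (gray), one panel per strain. The line marks equal means. In C57BL/6J all 196 members are below the line, in FVB/N 186 are, and Brox lies on or near it in both.

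On the log2 scale of DEHP over control, computed as (DEHP mean + 1) over (control mean + 1), the median of the members was -1.36 in C57BL/6J (quartiles -1.65 and -1.08) and -0.82 in FVB/N (quartiles -1.14 and -0.47). The mean was lower in DEHP in 196 of 196 members in C57BL/6J (192 with equal sums), where 54.8% of all promoters were lower, and in 186 of 196 in FVB/N, where 28.7% were. The medians of all promoters were -0.10 and 0.35. As deposited, ratios of -1 or lower occurred in 163 members in C57BL/6J (83.2%, against 11.1% of all promoters) and in 67 in FVB/N (34.2%, against 2.84%). Scaled counts at this level are not given. After scaling to equal sums the medians of the members were -0.82 and -0.91, beside 0.33 and 0.29 for all promoters. After scaling to equal medians they were -1.43 and -1.49, beside -0.16 and -0.18 for all promoters. The larger ratio in C57BL/6J, seen in 176 of 196 members as deposited, was seen in 86 after equal sums and in 94 after equal medians, so that the strains cannot be ordered by the size of their difference.

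These ratios carry the choice of members by their control values. The other sets and ranges that follow are given as deposited only. Among the 196 promoters of the CG range with the highest DEHP average, 183 were lower in DEHP in C57BL/6J with a median of -0.92, and 114 in FVB/N with a median of -0.17. Within the CG range the ratio followed the control level. In C57BL/6J the median was 0.09 under a control average of 5, -0.71 from 10 to 15, -1.21 from 20 to 30 and -1.93 from 50 upward. In FVB/N it was 0.40, -0.05, -0.64 and -1.35 in the same ranges. By ranges of the DEHP average the median was 0 under 5, -0.66 from 10 to 15 and -1.05 from 15 to 20 in C57BL/6J. The same ranges gave 0.28, 0.05 and -0.46 in FVB/N, where the median was highest from 5 to 10 with 0.36.

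**Figure D3:**
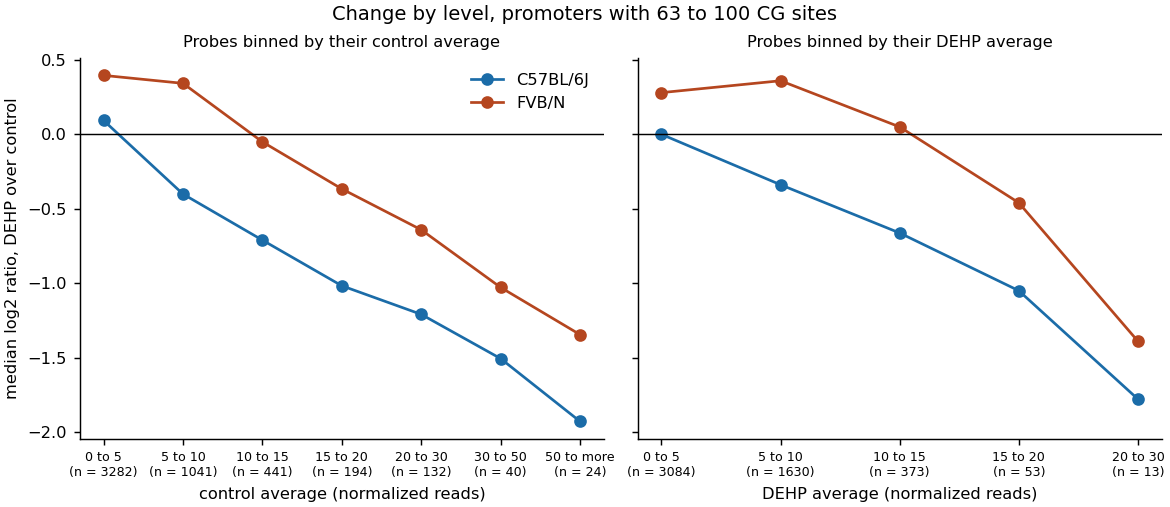
Median log2 ratio of DEHP over control (y axis) in promoters of the CG range, in ranges of the control average (left) and of the DEHP average (right), for C57BL/6J and FVB/N, with the number of promoters under each range. On the left the members are the 3 ranges from 20 upward, with medians from -1.21 to -1.93 in C57BL/6J and from -0.64 to -1.35 in FVB/N. The last range drawn on the right holds 13 promoters, and Brox, alone above a DEHP average of 30, is not drawn.

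High control signal was not particular to CG-rich promoters, and 2064 other promoters averaged 20 or more. Their median ratio of DEHP over control was -1.08 for C57BL/6J, against -0.39 for FVB/N, as deposited. Scaled values are not given for these promoters, so that the strains cannot be ordered here either. At control averages from 20 to 30, the medians were -0.87 and -0.09 in promoters with 20 to 39 CG sites (n = 828), -1.06 and -0.47 with 40 to 62 (n = 205), -1.22 and -0.65 with 63 to 100 (n = 147, before the exclusion of names) and -1.34 and -0.66 above 100 (n = 28). From 20 CG sites upward the ratio was thus lower in classes with more CG sites, without a test of this order. The class of 10 to 19 CG sites (n = 30) went against it, with -0.90 and -0.19.

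Single promoters were read through the separation of libraries. With 5 libraries, no value can be farther from the mean than 1.79 SD, and where the ranges of both groups did not overlap, every DEHP library was below or above every control library. This bound counts only part of the true separations. All DEHP libraries were below all control libraries in 24 members in C57BL/6J, where 1.42% of all promoters were, and in 27 members in FVB/N, where 0.859% were. All were above in 0 members in both strains, where 0.249% and 0.774% of all promoters were. Of the 2064 other promoters at 20 or more, 9.16% and 6.64% were separated below, against 12.2% and 13.8% of the members. With equal sums the counts of members were 4 in C57BL/6J, where 0.129% of all promoters were separated below, and 29 in FVB/N, where 1.04% were. With equal medians they were 29 (1.88%) and 86 (3.25%). No member was separated above with either scaling, where 1.02% and 0.627% of all promoters were with equal sums and 0.222% and 0.125% with equal medians.

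Of these, 6 members were separated below in both strains, where 39 of all promoters (0.173%) were, namely Ascc1, Gm12522, Pmm2, Gm3336, Senp6 and Ctdsp2. With equal sums Gm3336 alone remained (0.0311% of all promoters), and with equal medians the count was 17 (0.587%). Ascc1, a subunit of a transcription coactivator complex, was at 28.4 ± 6.9 (SD, n = 5) in C57BL/6J control, 6.9 ± 3.9 in C57BL/6J DEHP, 24.5 ± 6.1 in FVB/N control and 4.6 ± 1.9 in FVB/N DEHP. Its log2 ratio was -1.90 ± 0.35 (SE) in C57BL/6J. In FVB/N it was -2.19 ± 0.27, the lowest of the 196 members there. Pmm2, a phosphomannomutase of protein glycosylation, was at 54.1 ± 14, 13.3 ± 6.8, 42.7 ± 6.3 and 14.1 ± 4.4 in the same order of groups. Gm12522, a non-coding transcript beside Psrc1, was at 48.2 ± 11.6, 10.6 ± 6.3, 41.4 ± 1.9 and 10.8 ± 1.8, with the DEHP groups nearly at the same level.

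Senp6 was at 32.2 ± 5.6, 11.8 ± 4.5, 30.2 ± 5.1 and 8.6 ± 3.2, and the phosphatase gene Ctdsp2 at 23.9 ± 3, 7.1 ± 3.1, 20.5 ± 3.6 and 8.7 ± 2.5. Gm3336 was at 81.6 ± 17.2, 16.4 ± 5.3, 54.9 ± 8.1 and 20.5 ± 4.9. In these 6 promoters the control libraries did not overlap with the DEHP libraries in either strain as deposited, and with equal sums this held for Gm3336 only. The lowest ratios among the separated members in C57BL/6J were those of Gm3336 (-2.25 ± 0.24, SE), Ncaph2 (-2.19 ± 0.28), Kif7 (-2.17 ± 0.24) and Asic4 (-2.13 ± 0.24). Ncaph2 is a subunit of condensin II, Kif7 a kinesin of Hedgehog signaling in the primary cilium and Asic4 a member of the acid-sensing ion channels. In FVB/N they were those of Ascc1, Gm12522 (-1.84 ± 0.10), Zdhhc22 (-1.82 ± 0.25) and Snord37 (-1.80 ± 0.18).

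**Figure D4:**
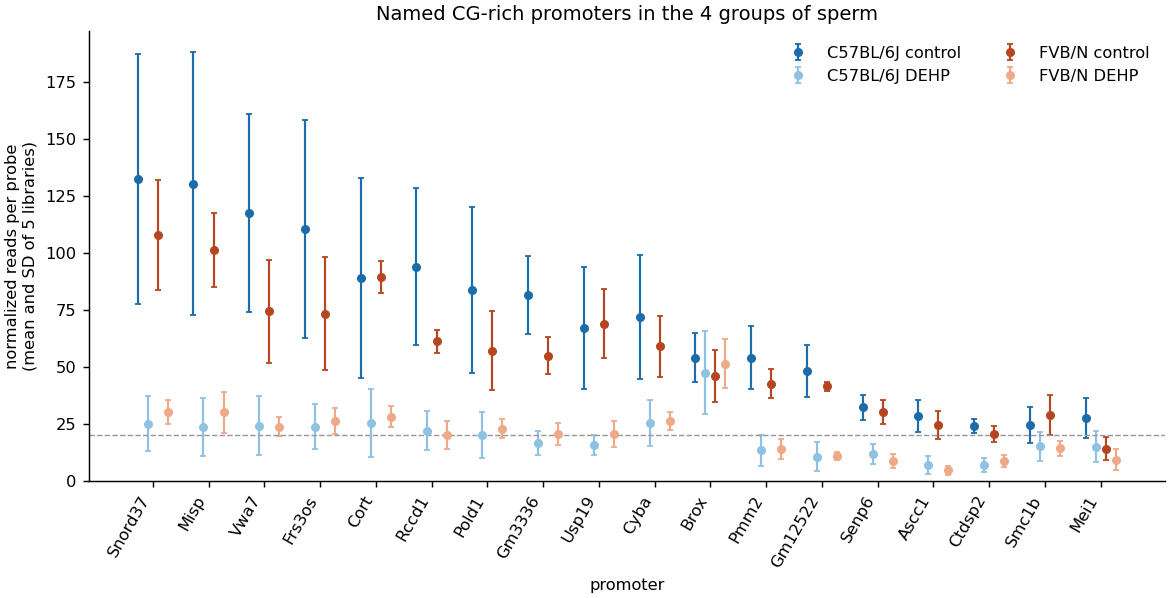
Mean and SD (bars) of normalized reads over 5 libraries in each of the 4 groups for 18 named members, with a dashed line at 20. The 10 members with the highest control average are at the left. Brox follows them, with all 4 means from 46.1 to 54.1. In the other 17 members the DEHP means are under the control means of the same strain.

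Brox was the exception among the members with strong signal, and it was singled out after its values were seen. It encodes a protein with a BRO1 domain, and exons of its neighbour Aida filled 66.6% of its probe. Brox was at 54.1 ± 10.7 (SD, n = 5) in C57BL/6J control, 47.5 ± 18.1 in C57BL/6J DEHP, 46.1 ± 11.3 in FVB/N control and 51.4 ± 10.7 in FVB/N DEHP. The log2 ratios were -0.18 ± 0.27 (SE) and 0.15 ± 0.20, within 1 SE of 0 in both strains as deposited. With equal sums the ratio was 0.37 ± 0.27 (SE) in C57BL/6J, and with equal medians -0.54 ± 0.20 in FVB/N, each over 1 SE from 0. Its DEHP average of 49.45 was the highest of the 196 members, ahead of Snord37 at 27.65. Only 15.3% of its 85 CG sites were in the upstream 1100 bases of the probe, the lowest share of all members. The smallest differences in C57BL/6J after Brox were those of Fstl4 (-0.40 ± 0.33) and Zc3h14 (-0.44 ± 0.32).

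In FVB/N, 10 members were at or above their control mean as deposited, namely Brox, Irf3, Crip2, Slc6a7, B4galt2, Ncapg2, Pibf1, Hdgfrp3, Ddb1 and Dnajc11. With equal sums 6 members were, and with equal medians 0. Irf3, a transcription factor of the interferon response, had the highest ratio, 0.41 ± 0.61 (SE), from 12.2 ± 12.1 (SD, n = 5) in control to 16.5 ± 4.5 in DEHP. Irf3 was also among the 3 members with the largest SD relative to the mean in FVB/N control, with Fam132b (14.3 ± 14.9) and Ube2v1 (15.3 ± 14.8). In C57BL/6J control these were Gpaa1 (44.8 ± 26.1), Gm13286 (24.4 ± 14) and Sgsh (25.1 ± 14.3). With an SD near the mean, the level of Irf3, Fam132b and Ube2v1 in FVB/N control is known only roughly. The median SD of the members was 0.33 of the mean in C57BL/6J control, 0.39 in C57BL/6J DEHP, 0.31 in FVB/N control and 0.26 in FVB/N DEHP.

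The strains can be compared in DEHP sperm, whose values the rule did not use. The median log2 ratio of C57BL/6J over FVB/N in DEHP was -0.11 (quartiles -0.28 and 0.07), with C57BL/6J higher in 67 members and lower in 127. Over all 22480 promoters the median was 0.04, with C57BL/6J higher in 11948 and lower in 9933. With equal sums the median was -0.14 for the members (62 higher and 134 lower) and 0.02 for all promoters. With equal medians it was -0.21 (47 higher and 149 lower) and -0.05. The median SE of such a ratio was 0.29 in the members as deposited. Separated libraries, the most extreme outcome of an exact permutation test of ranks between 5 and 5 libraries (two-sided p = 0.00794, the smallest it can give), were found in 0 of 196 members in either direction, where 0.307% of all promoters were separated above and 0.0311% below. The count stayed at 0 with equal sums (0.294% above and 0.0356% below) and with equal medians (0.258% and 0.0445%). Smaller differences are not seen by this bound. The extreme ratios, picked after the values were seen, were those of Nat14 (-0.83 ± 0.35, SE), an acetyltransferase-like gene, and Ptprs (0.73 ± 0.29), a receptor protein tyrosine phosphatase. In control sperm C57BL/6J was higher in 179 members as deposited, with a median of 0.51 beside 0.54 for all promoters. The direction turned with scaling, to a median of -0.14 with equal sums (62 members higher) and of -0.20 with equal medians (50 higher). Ptprs was the only member whose control libraries were separated between strains, with 38.6 ± 5.5 for C57BL/6J against 17.5 ± 5.4 for FVB/N (1.06% of all promoters were separated in this direction and 0.0267% in the other). With equal sums (0.307% and 0.111%) and equal medians (0.289% and 0.129%) no member was.

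Sequence variants between the strains were recorded for each probe. The probe held no variant in 110 members (56.1%, against 53.3% of the promoters under 20), and the median ratio between strains in DEHP was -0.14 in these. It was 0.09 in the 20 members with at least 10 variants, and these groups were not tested against each other.

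Few members were genes with a known task in sperm. The deposited table marks 1 member for spermatogenesis (0.51%, against 2.54% of the promoters under 20), 1 for sperm part, 4 for reproduction (2.04%, against 5.49%) and 6 for reproductive process (3.06%, against 6.58%). Proteins of 9 members are in its sperm proteome (4.59%, against 4.84%), among them Gm3336, Eef1g, Eno2, Tagln2 and Dnajc11. The gene marked for spermatogenesis was Mei1, which is needed for the DNA breaks of meiotic recombination. It was at 27.4 ± 8.8 (SD, n = 5) in C57BL/6J control, 15 ± 6.7 in C57BL/6J DEHP, 14.1 ± 5 in FVB/N control and 9.3 ± 4.7 in FVB/N DEHP, and its ratios of -0.83 ± 0.34 (SE) and -0.55 ± 0.36 were smaller in size than the medians of the members. Its probe has 49 variants between the strains, the highest number of all members. Flot2, a protein of membrane microdomains, was the gene marked for sperm part and was at 33.1 ± 15, 13.4 ± 3.5, 19.6 ± 8.7 and 15.5 ± 1.7. Smc1b, the cohesin subunit of meiosis and a gene marked for reproduction, was at 24.4 ± 7.8, 15.1 ± 6.5, 28.8 ± 8.8 and 14.2 ± 3.3. None of these 3 promoters was separated in either strain.

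Grouped by their symbols, 19 members were unnamed gene models (9.69%, against 5.85% of the promoters under 20), with median ratios of -1.25 (C57BL/6J) and -0.89 (FVB/N), and 5 and 2 of them, respectively, were separated below (1.42% and 0.859% of all promoters, 12.2% and 13.8% of all members). The other groups were read from the first letters of symbols only and miss members with other symbols, so that their counts are no measure of function. By these letters the largest group was that of ubiquitin and proteolysis, with Fbxl6, Trim14, Trim47 and Usp19 and median ratios of -1.78 and -1.06. It held 2.04% of the members, nearly the same share as the 1.92% of the promoters under 20.

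The members were spread over all 19 chromosomes, with most on chromosome 11 (24), 7 (19) and 17 (19), and 23 lay within 50 kb of another member. The probes of Raver1 and Raver1-fdx1l were the same, those of Sfxn3 and Pdzd7 overlapped, and 194 distinct regions remained. On chromosome 9, Cyb561d2, Rassf1 and Tusc2 were neighbours, and on chromosome 10 Snord37 and Dapk3.

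In germ cells the genes behind these promoters were expressed at levels near those of other CG-rich promoters. These values stem from other C57BL/6J males, studied by another group with oligonucleotide microarrays, on a scale that is not stated. Spermatogonia and Sertoli cells came from immature males and spermatocytes and spermatids from adult males. Age thus differed along with cell type. They cover 179 members and 4678 of the promoters under 20. The median of the members was 6.95 in spermatogonia, 6.56 in spermatocytes and 6.56 in spermatids, against 6.74, 6.36 and 6.13, and 6.70 in the somatic Sertoli cells against 6.61. In the 59 members with a control average of at least 30 it was 6.288, 6.235, 6.322 and 6.165 in the same order. These medians were below those of the promoters under 20 except in spermatids. A gene was under 5 in all 4 populations in 13 members (7.26%, against 9.58%) and at 10 or more in at least 1 in 32 members (17.9%, against 15.1%). High signal over the probe was found beside genes with low and with high values. Over the 179 members Spearman's rho of the control average with expression in spermatids was -0.16.

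Rpl7a, a protein of the large ribosomal subunit, was the highest member in spermatogonia, Sertoli cells and spermatocytes, at 13.4, 13.1 and 12.4. Zc3h14, a protein binding poly(A) tails, reached 11.9 in spermatocytes. In spermatids the highest were Fam71e1 at 12.8, 1700003E16Rik at 11.8 and Rpl7a at 11.4. Emg1, a ribosome biogenesis factor, was at 11.5 in spermatogonia, and Ddb1, of the ultraviolet damage response, at 11.6 in Sertoli cells.

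In 13 members (7.26%, against 5.66% of the promoters under 20) spermatocytes and spermatids were both at least 2 units above spermatogonia and Sertoli cells. They included Fam71e1, which went from 4.92 in spermatogonia to 10.3 in spermatocytes and 12.8 in spermatids, Gm166 (5.01, 9.999 and 10.7), Frs3os (4.90, 9.71 and 10.4), Pnma1 (4.23, 10.2 and 9.52) and 1700067K01Rik (4.96, 8.47 and 10.2). Fam71e1 was at 27.5 ± 12.6 normalized reads (SD, n = 5) in C57BL/6J control and 10.2 ± 7.6 in C57BL/6J DEHP. In FVB/N it was at 19.3 ± 4.3 and 9.2 ± 2.7. The median control average of the 13 was 23.2, and their median ratio was -1.08 for C57BL/6J, against -0.65 for FVB/N.

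In 19 members (10.6%, against 17.3%) spermatids were at least 2 units below spermatogonia. The largest differences were those of Pmp22, a myelin protein (11.1 in spermatogonia and 5.16 in spermatids), of Trip6 (10.3 and 5.11) and of the transport factor Uso1 (9.53 and 4.89). The median control average of the 19 was 26.8, and their median ratios were -1.39 and -0.83. Both groups had lower medians in DEHP sperm, but so had the members as a whole, which were chosen by their control values. Of all members, 196 were lower in C57BL/6J and 186 in FVB/N, so that no relation to expression can be read from this. The 2 groups were not tested against each other.

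**Figure D5:**
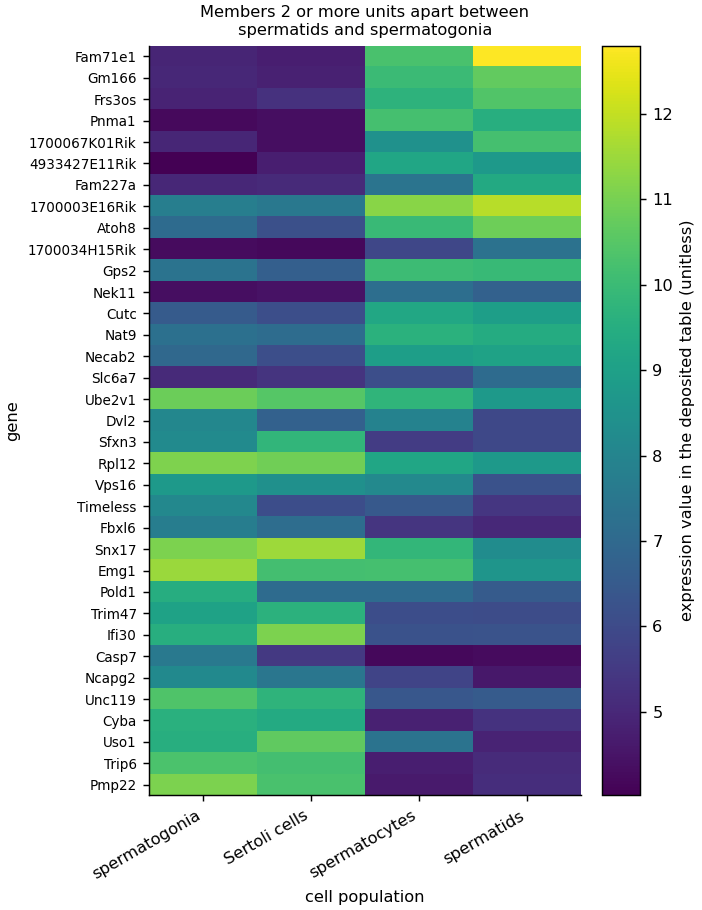
Expression values of the deposited table (color scale, without unit) in spermatogonia, Sertoli cells, spermatocytes and spermatids for the members with a difference of at least 2 units between spermatids and spermatogonia, ordered by this difference. Genes higher in spermatids are at the top, from Fam71e1, and those lower in spermatids at the bottom, down to Pmp22.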

How the data were processed

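Sperm DNA of 20 males, 5 per group, was measured by MBD-sequencing. Per the labels and methods, read-pairs were aligned onto mm10 with Bowtie 0.12.7, and ambiguous or non-concordant pairs, and inserts lacking CpG, were discarded. The authors counted pairs overlapping each probe of 2200 bases, normalized them with edgeR and deposited the signal of each group as its mean, with the SD in the same normalized reads, to 1 decimal. Depth per library is unknown from these means, and only their SD measures error. The deposited table also holds the authors' log2 fold changes, p-values and FDR of their own comparisons, which were not used here. Its expression score, from an independent dataset of germ cells, was deposited by the authors without a scale. CG sites and variants per probe are other deposited columns, annotated by the authors.

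Log2 ratios used a pseudocount of 1, and their SE came from the SDs. Separation used the mean ± 1.79 SD, widened by 0.05 for rounding, and was tested on simulated data. Alternatives were equal sums or medians, a pseudocount of 0.1, other levels and no widening. Sequence came from GRCm38.p6 and exons from GENCODE M21, where older symbols and genes on the same strand starting within 100 bases counted as the promoter's own gene. Unique sequences of 51 bases were sampled every 20 bases.

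The members and lists were chosen with earlier results of these data known. Named promoters were the 10 with the highest control average, the 4 lowest separated ratios per strain, those separated in both strains, those marked for spermatogenesis or sperm part, the 3 with the highest expression per population, the 3 nearest the threshold with ties, and the 3 with the largest SD relative to the mean per control group. Others are named as examples of a group, or as picked after their values were seen. A gene that the rule names is not reported here. Samples were grouped by their labels, which do not number replicates across groups. Python 3.11.15 was used with numpy, pandas, scipy, numba, pysam and matplotlib.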

Additional observations from a re-analysis of the deposited data

How the results depend on the processing

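The number of promoters was 390 at a control average of at least 15, 64 at 30 and 110 at 20 in each strain. The median ratio in FVB/N was -1.49 with equal medians and -0.17 among as many promoters with the highest DEHP average, an alternative chosen after seeing the data. Members separated below were 4 in C57BL/6J with equal sums and 86 in FVB/N with equal medians. Most CG sites were in the upstream 1100 bases in 8.16% of members, and before 500 bases upstream in 17.9%. An exon of any other gene was overlapped by 74% of members and by 58.7% of the promoters with the highest DEHP average. No median ratio of DEHP over control changed its sign.

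No paired analysis was possible because only means of groups were used and the labels number no replicates across groups. Leaving out a library could not be run for the same reason, and depth limits could not be computed.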
